A study of Rattus norvegicus with 9 samples.

Results

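Livers of cirrhotic rats that had been injected with HepLPCs were compared with livers of healthy rats, to describe what still set them apart from normal tissue. The members are 6 of the 9 whole-liver RNA-seq libraries of the series, chosen by their sample titles: 3 HepLPC libraries and 3 normal libraries. HepLPCs are hepatocyte-derived liver progenitor-like cells, here of rat origin. The HepLPC group were wild-type Sprague-Dawley rats of 5 months with cirrhosis, injected with the cells. The normal group were wild-type Sprague-Dawley rats of 5 months that had been given neither the hepatotoxin carbon tetrachloride (CCl4) nor cells. A second cirrhotic group of 3 libraries, from rats of the same strain, genotype and age injected with phosphate-buffered saline (PBS), is given beside them. The labels give neither the interval between injection and sampling nor the route or number of cells. Replicates are numbered 1 to 3 in each group, and the labels do not say whether each came from its own animal. The p-values therefore reflect only how much these samples varied, and some of that variation may be technical.

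In cirrhosis, repeated hepatocyte injury activates hepatic stellate cells, which become collagen-secreting myofibroblasts, and bands of scar divide the liver into regenerating nodules. Bile-duct-like cells spread out from the portal tracts, macrophages and other leukocytes enter the scar, and hepatocytes re-enter the cell cycle. Hepatocytes are also zoned along the lobule: those around the central vein carry glutamine synthesis and much drug metabolism, under Wnt signalling, and those around the portal tract carry urea and glucose production. In whole tissue, fewer cells of a type and less RNA per cell cannot be told apart.

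Expression is given as RPKM, which divides a gene's reads by its length in kilobases and by the M reads of the library. The library totals inferred from the RPKM were 17.4 to 21.8 M reads. Albumin lay between 47139 and 68724 RPKM in all 9 libraries. HepLPC replicate 2 and PBS replicate 1 stood apart from the other libraries in a dependence on gene length. Across 11124 genes, the deviation from the group mean had a Spearman correlation with gene length of -0.528 in HepLPC replicate 2 and -0.564 in PBS replicate 1, against -0.157 to 0.423 in the other libraries. Counts of list members are therefore also given without HepLPC replicate 2 where that moves them by more than 1.5 times. Differences are of mean log2(RPKM + 1), HepLPC minus normal, with their standard error (SE), and adjusted p-values come from limma over all 11124 genes tested. This scale understates changes of genes below a few RPKM.

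Few genes differed from normal beyond the spread between libraries. Of 11124 genes, 9 were called at an adjusted p under 0.05, which is 0.0809% of those tested. Higher in the HepLPC livers were 5 (0.0449%) and lower 4 (0.036%). By the same test and over the same normal libraries, the PBS livers differed from normal in 1262 genes (11.3%), and the HepLPC and PBS livers from each other in 341 (3.07%). These comparisons share libraries and their counts were not tested against each other. At an unadjusted p under 0.05, 816 genes were higher (7.34%) and 220 lower (1.98%). All 3 HepLPC values lay above all 3 normal values for 1367 genes (12.3%) and below them for 390 (3.51%). This split depends on scaling. After rescaling the libraries by the median of ratios it was 945 genes above (8.5%) and 860 below (7.73%), with 3 genes called higher and 4 lower. Leaving out HepLPC replicate 2 gave 3061 above (27.5%) and 784 below (7.05%), but fewer values must then separate. The same count without another HepLPC library was not made, so what this library contributes was not tested. Over all tested genes the median difference was 0.05, and 0.01 after rescaling.

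The genes named below are 6 marker genes, a fixed panel, the most abundant members of each gene list, and others that were picked after their values were seen. Those last, and list members named as examples, support nothing beyond their own values.

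Matrix and vessel wall, mast cell, ammonium transport and unassigned functions are represented among the 4 marker genes that rose, and the leptin receptor is the marker that fell. Mgp encodes matrix Gla protein, an inhibitor of calcification made by fibroblasts, vascular cells and cartilage. Mgp stood at 9.95, 7.70 and 7.91 RPKM in normal replicates 1 to 3, at 22.7, 25.7 and 40.8 in the HepLPC libraries and at 137, 197 and 170 in the PBS libraries. The HepLPC libraries all lay above the normal ones and below the PBS ones, with no overlap between any pair of groups. Mgp rose by 1.65 over normal on the log2 scale (SE 0.22, adjusted p = 0.0464), and was lower than in the PBS livers by a difference of -2.49 (adjusted p = 0.00177).

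Mcpt2 encodes a chymase-like protease that rat mucosal mast cells store in their granules. It stood at 1.01, 2.03 and 0.814 RPKM in the normal libraries and at 21.3, 14.9 and 8.49 in the HepLPC libraries. The PBS libraries held 14.8, 13.1 and 29.8 RPKM. HepLPC and PBS values overlapped one another and lay well clear of the normal ones. The rise over normal was 2.75 (SE 0.37, adjusted p = 0.0464), and the HepLPC and PBS livers differed by -0.34 (adjusted p = 0.673). The gene table of the rat assembly GRCr8 has no entry named Mcpt2 and lists rMCP-2 as a synonym of Mcpt1, so how reads were shared among the mast cell proteases is uncertain. Mcpt1 itself was at 0 in the 6 normal and HepLPC libraries.

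Rhbg encodes an ammonium transporter of the Rh family that pericentral hepatocytes carry in the liver. Normal libraries read 0.871, 0.930 and 1.37 RPKM and HepLPC libraries 4.70, 9.20 and 6.02. In the PBS libraries Rhbg was at 12.9, 6.88 and 10.6 RPKM, overlapping the HepLPC range. Every cirrhotic value was above every normal one. Rhbg rose by 1.86 (SE 0.26, adjusted p = 0.0464).

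Prr32 encodes a proline-rich protein. It was at 7, 4.20 and 3.47 RPKM in normal, 17, 16.9 and 13.5 in HepLPC and 7.01, 9.01 and 8.24 in PBS libraries. Here the HepLPC livers were the highest group and overlapped neither of the others. The rise was 1.55 (SE 0.21, adjusted p = 0.0464). For PBS the same contrast with normal gave 0.66 (adjusted p = 0.0765), and HepLPC minus PBS gave 0.89 (adjusted p = 0.0574).

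Lepr encodes the leptin receptor, through which the fat-derived hormone leptin signals. Normal libraries held 1.32, 1.73 and 1.71 RPKM, from 96, 138 and 134 reads. In HepLPC replicates 1 to 3 it was at 0.241, 0.0142 and 0 RPKM, from 17, 1 and 0 reads, and in the PBS libraries at 0.154, 0.199 and 0.374. All cirrhotic libraries, injected with cells or not, lay below all normal ones. Lepr fell by 1.26 on the log2 scale (SE 0.14, adjusted p = 0.0273). Leprot, a gene of the same chromosome whose transcripts are known to share the locus, was at 10.1, 9.52 and 8.74 RPKM in normal and 9.23, 9.77 and 11.5 in HepLPC libraries, with overlapping ranges. Leprot was picked after its values were seen.

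The calls on these genes sat close to the threshold. When each of the 9 libraries was left out in turn, Mgp and Rhbg kept their call only without PBS replicate 2, and Prr32 only without normal replicate 1. Mcpt2 kept it without PBS replicate 2 or 3. Over these fits, adjusted p reached 0.187 for Mgp and Prr32, 0.172 for Mcpt2 and 0.191 for Rhbg, while the differences stayed between 1.41 and 1.82 for Mgp, 2.46 and 3.08 for Mcpt2, 1.37 and 1.79 for Prr32, and 1.63 and 2.05 for Rhbg. Lepr lost its call without any of the normal libraries or HepLPC replicate 3, with an adjusted p of up to 0.136.

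**Figure D1:**
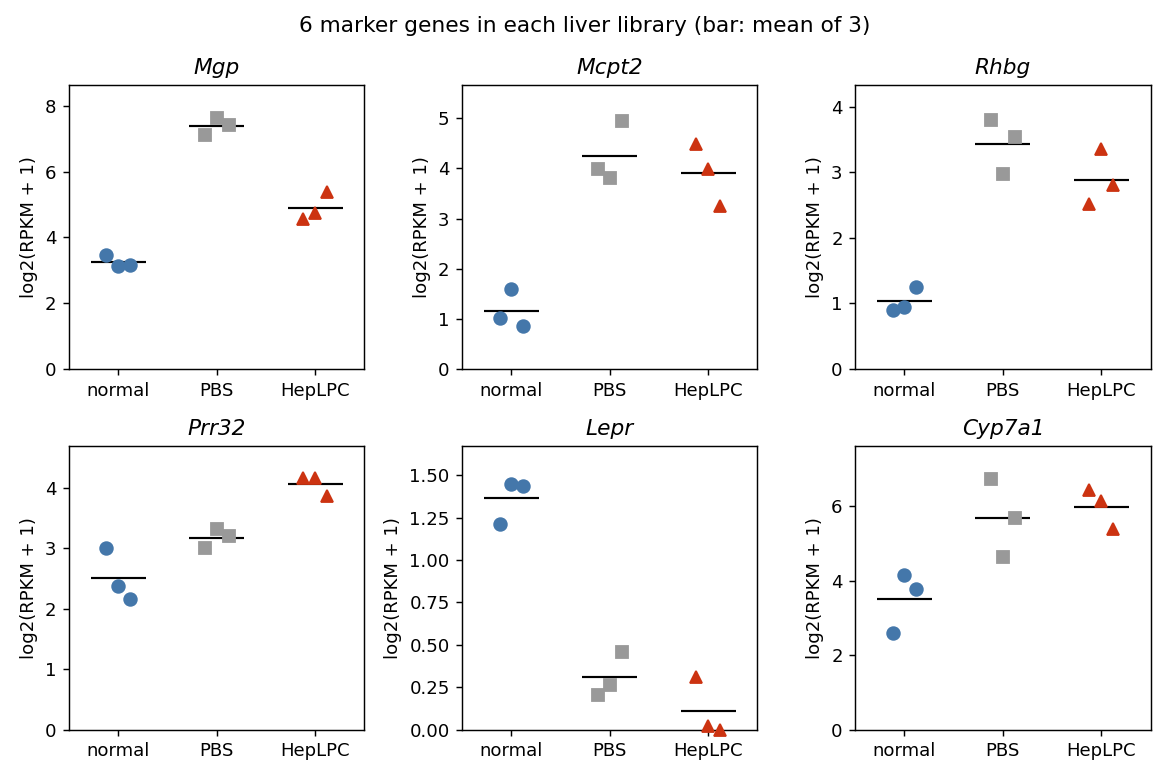
Points give log2(RPKM + 1) of the 6 marker genes in each library of the normal, PBS and HepLPC groups, and bars the mean of 3 libraries. Mgp in the HepLPC livers lies between the normal and PBS values, Mcpt2, Rhbg, Lepr and Cyp7a1 lie with the PBS values, and Prr32 is highest in the HepLPC livers.

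Cyp7a1 is the sixth marker and encodes the enzyme that limits the rate of bile acid production from cholesterol. Its values were 5.00, 16.8 and 12.8 RPKM in normal, 85.6, 70.0 and 40.8 in HepLPC and 105, 24.0 and 50.3 in PBS libraries. Although the HepLPC and normal ranges did not overlap, both groups were wide. The difference of 2.48 (SE 0.55, 95% interval 1.25 to 3.71) did not pass after adjustment (adjusted p = 0.21).

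The other 4 called genes carry placeholder names. LOC102546393, a long non-coding RNA gene in the GRCr8 table, was at 20.7, 26.1 and 13.7 RPKM in normal and 0.0534, 2.59 and 0.691 in HepLPC libraries, and fell by 3.47 (SE 0.39, adjusted p = 0.0273). In the PBS libraries it was at 0.713, 0.667 and 0.696 RPKM. LOC108353224 was at 5.14, 6.82 and 3.66 RPKM in normal, 0, 0.618 and 0.196 in HepLPC and 0 in all PBS libraries, and fell by 2.28 (SE 0.22, adjusted p = 0.0194). Both were low in every cirrhotic library. RGD1564861 rose by 2.94 (SE 0.39, adjusted p = 0.0464), from 14.3, 35.0 and 16.9 RPKM to 211, 129 and 161, and was at 181, 75.8 and 89.1 in the PBS libraries. A row with only an Ensembl identifier, ENSRNOG00000023664.8, fell by 1.15 (SE 0.14, adjusted p = 0.0402). It ran at 1.18, 1.54 and 1.52 RPKM in normal and 0.193, 0.0402 and 0.0268 in HepLPC libraries, close to the Lepr values of the same libraries. Whether these rows share reads with Lepr was not tested. Without HepLPC replicate 3, no call on these 4 rows remained, with adjusted p of 0.0725 for LOC108353224, 0.103 for LOC102546393, 0.149 for RGD1564861 and 0.108 for ENSRNOG00000023664.8. Over the 9 fits that each left out 1 library, LOC108353224 lost its call in 1 and LOC102546393 in 4. RGD1564861 and ENSRNOG00000023664.8 each lost theirs in 6.

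Just outside the threshold, and picked after their values were seen, lay several genes with tight groups. Ccl19, a chemokine that draws lymphocytes and dendritic cells, was at 0.982, 0.898 and 0.782 RPKM in normal and 2.61, 2.82 and 2.41 in HepLPC libraries (difference 0.94, SE 0.14, adjusted p = 0.0832). C7, a component of the complement attack complex made by mesenchymal cells, was at 1.45, 1.80 and 1.59 RPKM in normal, 7.44, 4.65 and 10.1 in HepLPC and 19.5, 31.0 and 32.8 in PBS libraries (adjusted p = 0.0923). The C7 values fell into 3 separate levels, as those of Mgp did. Gde1, a glycerophosphodiester phosphodiesterase, was at 53.1, 46.8 and 48.6 RPKM in normal, 23.2, 23.8 and 30.5 in HepLPC and 28.6, 29.4 and 22.3 in PBS libraries (difference -0.92, adjusted p = 0.0923). Slc29a1, an equilibrative nucleoside transporter, was at 15.8, 14.8 and 12.6 RPKM in normal and 7.52, 8.59 and 8.58 in HepLPC libraries (adjusted p = 0.108). For Gde1 and Slc29a1 the HepLPC and PBS values overlapped, and both groups lay below normal.

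Gene lists for the cell types and pathways of the liver were described by their members' counts and medians. Of 39 lists beside the markers, none had more than 1 member called, and voom on the recovered reads called none. The range of medians, HepLPC minus normal, covers lists with 4 or more tested genes. It ran from -0.38 for blood and red cell genes to 0.78 for mast cell genes, against 0.05 over all genes. The mast cell median is over 4 genes, Mcpt2 among them, and 2 of the 4 reached 1 RPKM in no normal library. The 1 that reached it in all normal libraries, Hdc, differed by -0.37. A list's median is over the members that passed the filter of 1 RPKM in 3 of the 9 libraries, which a gene can pass through the cirrhotic groups alone, so the medians and counts of lists low in normal liver describe only those members and favour higher ones. Shares of all genes printed beside a count are those tested the same way.

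**Figure D2:**
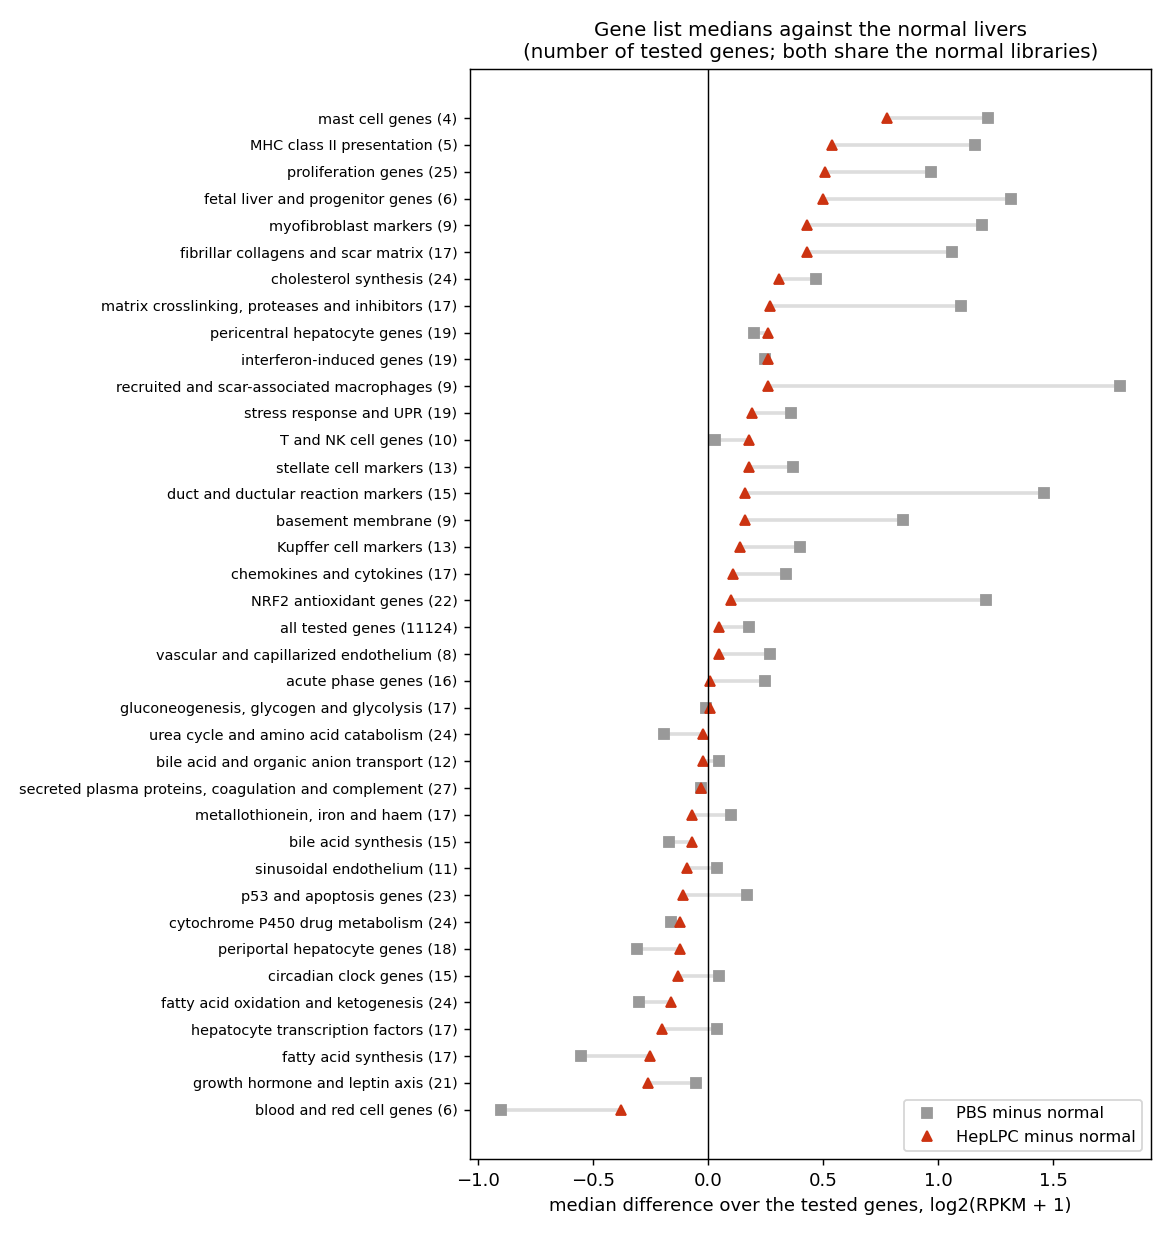
Each line is a gene list with its number of tested genes; triangles give the median difference of HepLPC livers from normal and squares that of PBS livers from the same normal libraries, on log2(RPKM + 1). Scar matrix, duct, recruited macrophage and NRF2 lists lie at 1.06 to 1.79 for PBS and at 0.10 to 0.43 for HepLPC. The Kupffer cell list lies at 0.40 for PBS and 0.14 for HepLPC. For the cholesterol and pericentral lists the 2 medians lie close together.

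No fibrillar collagen or other scar matrix gene passed the test, and several had HepLPC values wholly above normal. Of 24 members, 17 were tested and 0 called by limma. At an unadjusted p under 0.05, 8 were higher and 0 lower, beside 7.34% and 1.98% of all genes. In 9 of the 17, all HepLPC values were above all normal ones, and in 13 without HepLPC replicate 2, against 12.3% and 27.5% of all genes. Of the 17, 6 reached 1 RPKM in no normal library and were tested through the cirrhotic ones, and among the 9 that reached it in all normal libraries 6 lay wholly above. The median difference was 0.43, beside 1.06 for PBS. Col3a1, the type III collagen of early scar, was at 12.5, 10.7 and 16.8 RPKM in normal, 31.2, 29.1 and 40 in HepLPC and 50.9, 76.4 and 66.7 in PBS libraries. Its 3 groups formed 3 separate steps, and the difference from normal was 1.27 (SE 0.21, adjusted p = 0.0923). Col1a1, the main collagen of mature scar, was at 0.353, 0.181 and 0.248 RPKM in normal, 0.862, 0.656 and 1.91 in HepLPC and 3.62, 10.2 and 7.72 in PBS libraries (difference 0.72, SE 0.32, adjusted p = 0.533). These Col1a1 values are low beside Col3a1 on the same per-length scale in every group.

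Sparc, a collagen-binding matricellular protein, stood at 38.2, 44.4 and 44.4 RPKM in normal, 56.0, 67.2 and 67.7 in HepLPC and 81.1, 95.6 and 91.1 in PBS libraries (difference 0.58, adjusted p = 0.215). The collagen VI chains Col6a1, Col6a2 and Col6a3 and the elastic fibre gene Eln each had all HepLPC values above normal, with differences of 0.71, 0.76, 0.44 and 0.77 and adjusted p of 0.343, 0.304, 0.608 and 0.376. Fn1, fibronectin, which hepatocytes also secrete, overlapped at 189, 136 and 158 RPKM in normal and 187, 114 and 203 in HepLPC libraries. Of the 13 basement membrane genes 9 were tested and 0 were called (1 higher at an unadjusted p under 0.05), and 1, Lamb1, lay wholly above normal. Without HepLPC replicate 2 it was 5 of 9, beside 12.3% and 27.5% of all genes. At an unadjusted p under 0.05, 7.34% of all genes were higher.

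Among genes that crosslink or digest matrix, 17 of 19 were tested and 0 were called (6 higher and 0 lower at an unadjusted p under 0.05), and 8 had every HepLPC value above every normal one (6 after rescaling, 11 without HepLPC replicate 2). The shares of all genes lying above were 12.3%, 8.5% and 27.5%, and 7.34% were higher and 1.98% lower unadjusted. Of the 17, 4 reached 1 RPKM only in PBS libraries. Timp1 and Timp2 inhibit matrix metalloproteinases. Timp1 was at 1.28, 1.51 and 2.49 RPKM in normal, 3.53, 5.97 and 2.66 in HepLPC and 8.53, 11.8 and 7.33 in PBS libraries (difference 0.84, SE 0.27, adjusted p = 0.361). Timp2 was at 3.05, 3.20 and 5.44 RPKM in normal and 7.82, 8.24 and 6.64 in HepLPC libraries, and Mmp2, a gelatinase of stromal cells, at 1.66, 1.33 and 1.73 and at 4.71, 2.65 and 5.00. Serpinh1, the collagen chaperone HSP47, was at 5.63, 5.75 and 6.78 RPKM in normal and 8.67, 12.0 and 8.87 in HepLPC libraries. In these genes the HepLPC values lay above the normal ones and below the PBS ones, with adjusted p against normal of 0.214 for Timp2, 0.227 for Mmp2 and 0.3 for Serpinh1.

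**Figure D3:**
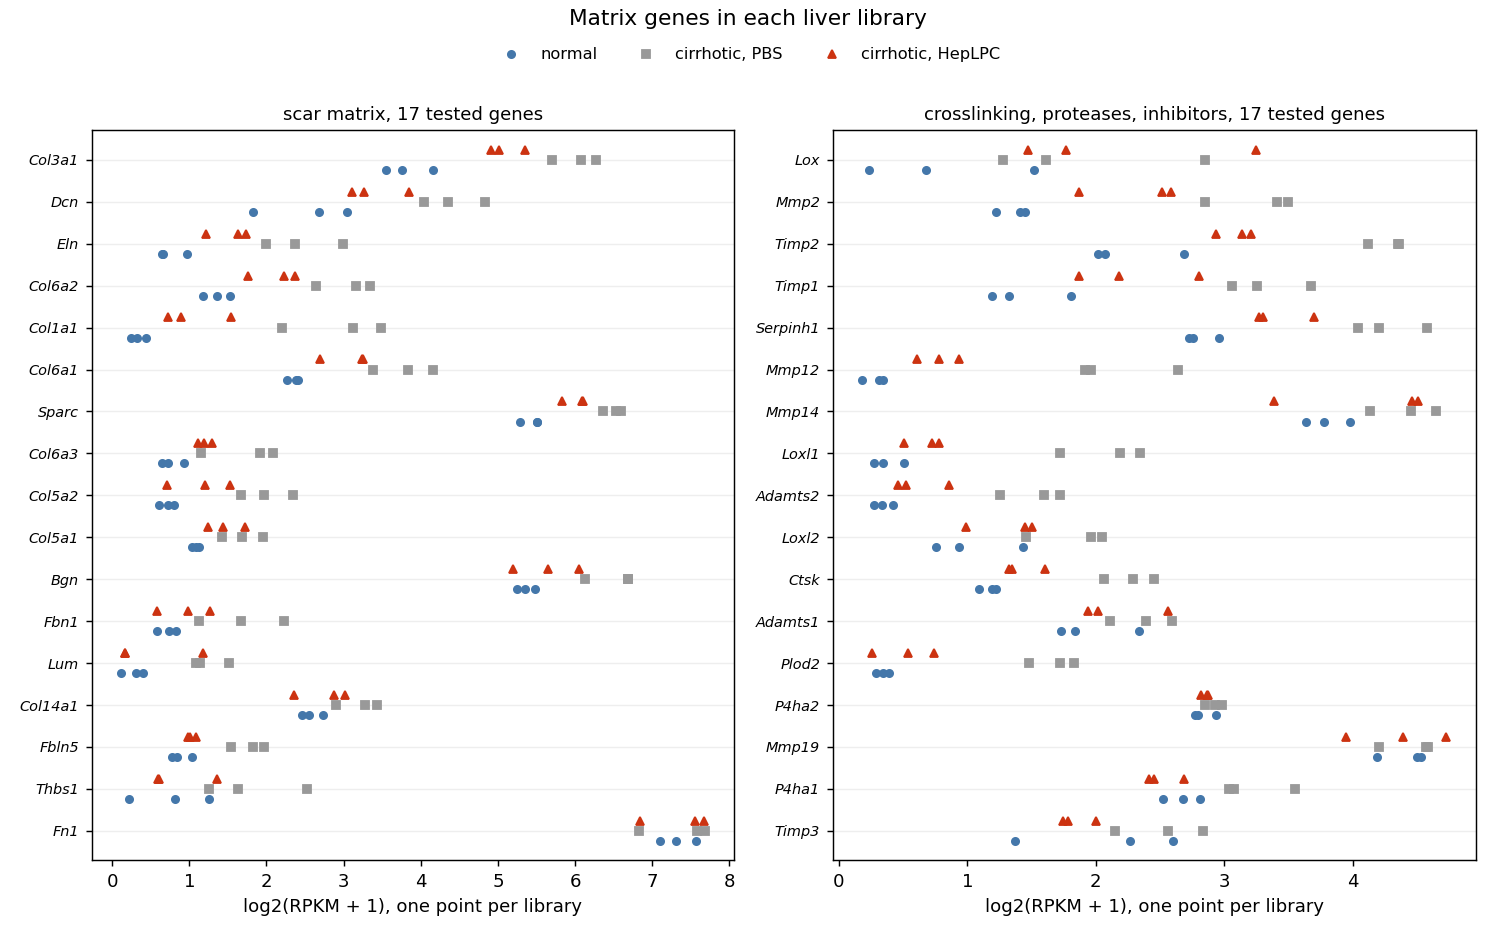
Points give log2(RPKM + 1) of each tested matrix gene in the 9 libraries, with genes ordered by the difference of HepLPC from normal. For Col3a1, Col6a2, Sparc and Timp2 the HepLPC points fall between the normal and PBS points, and for Fn1 and Mmp19 the groups overlap.

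The myofibroblast list had 9 of 13 members tested, 0 called (5 higher unadjusted) and 4 wholly above normal (3 after rescaling), beside 7.34% of all genes higher unadjusted, 12.3% above and 8.5% above after rescaling, with a median of 0.43 beside 1.19 for PBS. Acta2, smooth muscle actin, overlapped at 1.11, 2.17 and 0.634 RPKM in normal and 2.52, 2.44 and 1.77 in HepLPC libraries (difference 0.54, 95% interval 0.01 to 1.07, adjusted p = 0.533). S100a6, a calcium-binding protein of activated stellate and other cells, was at 3.24, 3.73 and 4.05 RPKM in normal, 6.79, 13.7 and 7.11 in HepLPC and 21.9, 49.3 and 25.5 in PBS libraries. Of 13 tested stellate cell markers 4 lay wholly above normal and 0 were called (3 higher unadjusted), beside 12.3% and 7.34% of all genes. Without HepLPC replicate 2, 10 of 13 lay above, beside 27.5% of all genes. Cygb, the stellate cell cytoglobin, was the member with the lowest adjusted p against PBS, at 2.23, 2.30 and 1.90 RPKM in normal, 2.94, 3.23 and 3.62 in HepLPC and 9.14, 10.4 and 11.9 in PBS libraries. It differed from PBS (adjusted p = 0.00187) and not from normal by this test (difference 0.44, adjusted p = 0.348).

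None of the bile duct and ductular markers was called. The 15 tested of 18 members had a median difference of 0.16, beside 1.46 for PBS, with 0 called against normal (0 also at an unadjusted p under 0.05) and 14 called higher in the PBS livers, where 10.4% of all genes were. In 6 of the 15 the HepLPC values lay wholly above normal (7 after rescaling, 9 without HepLPC replicate 2), beside 12.3%, 8.5% and 27.5% of all genes. Of the 15, 8 reached 1 RPKM in no normal library, and 6 of these only in PBS libraries, so the filter favours higher members in these counts. Among the 6 that reached it in all normal libraries, 0 lay wholly above, with a median of 0.01. Epcam, an adhesion molecule of ductal and progenitor cells, was at 8.43, 7.98 and 6.40 RPKM in normal and 8.36, 6.48 and 11.6 in HepLPC libraries, with ranges that overlap (difference 0.16, 95% interval -0.37 to 0.70). In the PBS libraries it was at 20.6, 36.8 and 27.1. Krt19, the duct keratin, did not overlap, at 0.327, 0.898 and 0.709 RPKM in normal and 1.61, 1.27 and 2.41 in HepLPC libraries, yet its wide interval of -0.32 to 1.81 (adjusted p = 0.71) left the difference undecided. Sox9, a duct and progenitor transcription factor, was at 0.0871, 0.102 and 0.0347 RPKM in normal, 0.270, 0.231 and 0.399 in HepLPC and 1.89, 2.86 and 2.79 in PBS libraries (adjusted p = 0.618 against normal). Spp1, osteopontin, was at 0, 0.580 and 1.18 RPKM in normal and 3.63, 1.08 and 4.21 in HepLPC libraries (adjusted p = 0.538).

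Fetal and progenitor genes were tested for 6 of 11 members, with 4 wholly above normal and 0 called (2 higher unadjusted), beside 12.3% and 7.34% of all genes. After rescaling 3 lay above and 1 below, beside 8.5% and 7.73% of all genes. Of the 6, 2 reached 1 RPKM in no normal library. Sox4, a transcription factor of progenitor cells, was at 0.607, 0.575 and 0.802 RPKM in normal, 1.24, 1.60 and 1.59 in HepLPC and 4.97, 5.92 and 7.01 in PBS libraries (difference 0.58, SE 0.14, adjusted p = 0.255). Afp, alpha-fetoprotein, was at 10.5, 11.4 and 11 RPKM in normal and 12.5, 20.9 and 12.8 in HepLPC libraries (adjusted p = 0.533). The labels do not tell host from injected cells, both being rat, so these values sum over both.

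Genes of the cell cycle made up the list with the most members above normal. All 25 tested members of 28 had a positive difference, as did 6607 of all 11124 genes tested. In 20 every HepLPC value lay above every normal one (19 after rescaling, 21 without HepLPC replicate 2). Of all genes 12.3%, 8.5% and 27.5% did. At an unadjusted p under 0.05, 19 were higher, beside 7.34% of all genes. None was called by limma, a count of 0. The median difference was 0.51, beside 0.97 for PBS. Of the 25, 15 reached 1 RPKM in none of the normal libraries and so were tested only because cirrhotic livers express them, which favours higher members in this count. Among the 7 that reached it in all normal libraries, 4 lay wholly above normal. Summed over all 28 members without any filter, the list came to 44.1, 39.2 and 54.5 RPKM in normal, 64.6, 83.8 and 79.5 in HepLPC and 113, 120 and 114 in PBS libraries, with no overlap between groups.

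Rrm2, the ribonucleotide reductase subunit that limits nucleotide supply in S phase, had the lowest adjusted p of the list. It was at 0.357, 0.0363 and 0.387 RPKM in normal, 1.27, 2.04 and 2 in HepLPC and 4.35, 4.49 and 3.43 in PBS libraries (difference 1.14, SE 0.17, adjusted p = 0.0832). Cdk1, the kinase that drives mitosis, was at 0.153, 0.174 and 0.673 RPKM in normal, from 4, 5 and 19 reads, and at 1.57, 2.99 and 2.40 in HepLPC libraries, from 40, 76 and 55 reads (difference 1.32, SE 0.23, adjusted p = 0.105). Cdc20, an activator of the anaphase-promoting complex, was at 0.594, 0.414 and 1.18 RPKM in normal and 2.30, 3.41 and 2.85 in HepLPC libraries (difference 1.17, adjusted p = 0.108). Mki67, the proliferation antigen Ki-67, was at 0.269, 0.175 and 0.286 RPKM in normal, 0.732, 0.701 and 1.13 in HepLPC and 1.47, 2.40 and 1.88 in PBS libraries (difference 0.57, SE 0.15, adjusted p = 0.276). In each of these the HepLPC libraries lay above normal. Pcna, the replication clamp and the most abundant member, was at 13.6, 14.3 and 14.3 RPKM in normal and 15.7, 24.3 and 17.1 in HepLPC libraries (adjusted p = 0.533). The 3 untested members, Ccnb2, Ccne1 and Bub1b, stayed under 1 RPKM in all normal and HepLPC libraries. Ccnb2 overlapped, at 0.306, 0.0623 and 0.348 RPKM in normal and 0.457, 0.316 and 0.117 in HepLPC libraries.

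**Figure D4:**
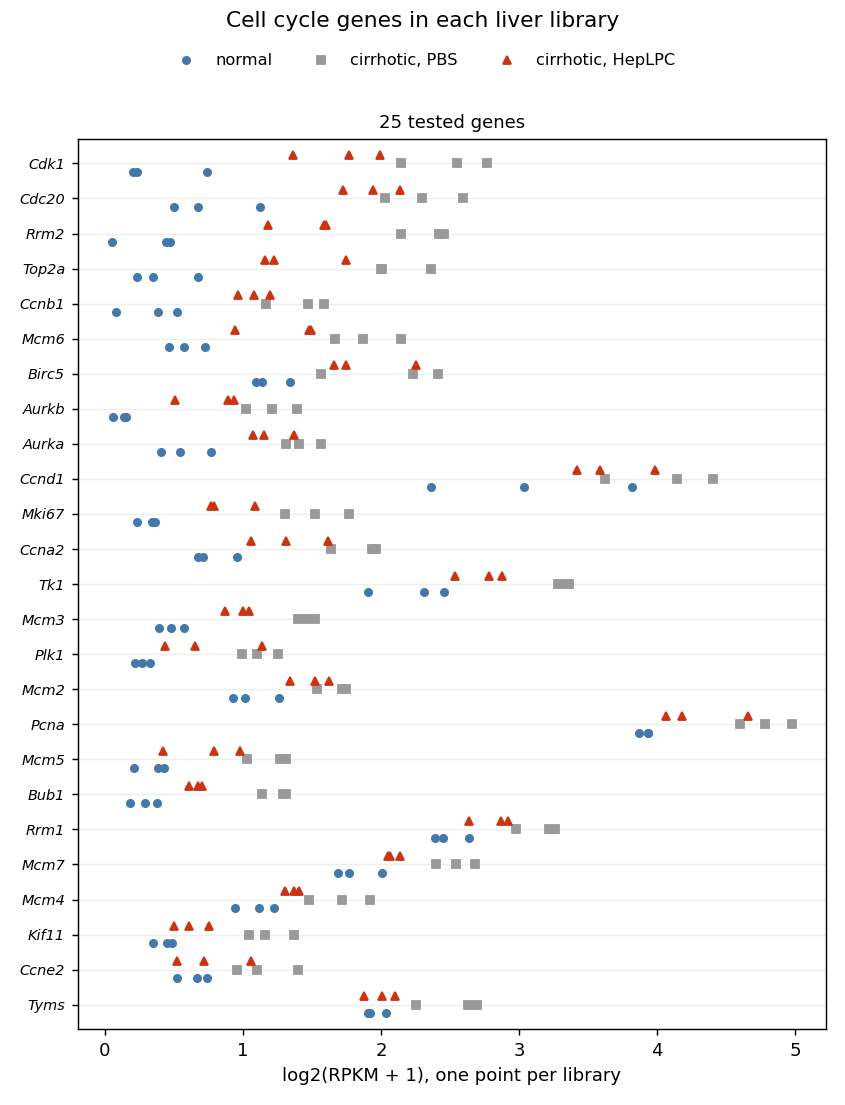
Points give log2(RPKM + 1) of the 25 tested cell cycle genes in each library, ordered by the difference of HepLPC from normal. HepLPC points lie to the right of all normal points for 20 genes, and to the left of the PBS points for Cdk1, Rrm2, Top2a and Mki67.

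Many cell cycle genes carry, just before their start site, CCAAT boxes and a cell cycle homology region, elements known from the control of G2/M transcription. The 250 bases before the RefSeq start site (GRCr8) of the kinase gene Cdk1 and of Cdc20 are shown because these were among the members furthest from normal. Cdk1 lies at chr20:19265043-19265292 on the plus strand and Cdc20 at chr5:137255800-137256049 on the minus strand. Capitals mark matches to TTTGAA or CCAAT on either strand, so that TTCAAA and ATTGG also count, and all are written 5′ to 3′ along the gene's strand.
Cdk1: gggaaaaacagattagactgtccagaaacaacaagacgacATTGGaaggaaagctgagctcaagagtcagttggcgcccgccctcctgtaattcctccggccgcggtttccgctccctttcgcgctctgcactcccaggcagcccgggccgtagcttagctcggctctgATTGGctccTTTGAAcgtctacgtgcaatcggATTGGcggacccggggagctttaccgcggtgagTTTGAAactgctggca
Cdc20: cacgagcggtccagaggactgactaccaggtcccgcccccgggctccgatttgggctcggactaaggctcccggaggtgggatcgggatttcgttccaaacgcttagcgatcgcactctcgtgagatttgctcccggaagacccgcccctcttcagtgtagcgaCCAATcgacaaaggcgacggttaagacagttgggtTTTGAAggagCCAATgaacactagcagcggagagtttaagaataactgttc
Cdk1 holds 5 such matches and Cdc20 holds 3. Of 22 members of the list with an entry, 7 hold TTTGAA in this window and 15 hold CCAAT, where 16.2% and 34% of all 33469 windows do. A member was counted with a match in any of its windows, while the shares of all are per window, so these measures are unlike. A match describes letters and is no evidence that a factor binds. Rrm2, Mgp, Mcpt2 and Cyp7a1 had no entry in the promoter table.

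Pericentral hepatocyte genes lay on both sides of normal. Of 20 members 19 were tested and 1 was called higher, the marker Rhbg, beside 0.0449% of all genes. At an unadjusted p under 0.05, 7 were higher and 1 lower, beside 7.34% and 1.98% of all genes. In 8 the HepLPC values lay wholly above normal and in 2 wholly below (6 and 2 after rescaling, 12 and 2 without HepLPC replicate 2). Of all genes, 12.3% lay above and 3.51% below, 8.5% and 7.73% after rescaling, and 27.5% and 7.05% without that library. The median difference was 0.26, and 0.20 for PBS. Glul, glutamine synthetase, the enzyme that removes ammonium around the central vein, was at 67.0, 66.9 and 70.9 RPKM in normal, 122, 119 and 113 in HepLPC and 65.3, 95.1 and 78.1 in PBS libraries. The HepLPC livers were the highest group, with all values above both others, and the difference from normal was 0.78 (SE 0.14, 95% interval 0.46 to 1.1, adjusted p = 0.114). Against PBS the adjusted p was 0.0648.

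Slc1a2, a glutamate transporter of pericentral hepatocytes, was at 0.833, 1.23 and 0.525 RPKM in normal, 3.26, 3.71 and 2.76 in HepLPC and 2.83, 3.16 and 1.74 in PBS libraries (difference 1.2, SE 0.20, adjusted p = 0.0923). Oat, ornithine aminotransferase, was at 95.6, 121 and 141 RPKM in normal, 229, 187 and 232 in HepLPC and 151, 131 and 85.7 in PBS libraries (adjusted p = 0.268). Like Glul, Oat was highest in the HepLPC livers. Tbx3, a Wnt-dependent transcription factor, was at 0.765, 0.633 and 0.575 RPKM in normal and 1.77, 1.43 and 1.61 in HepLPC libraries (adjusted p = 0.215). Cyp1a2, a drug-metabolizing cytochrome P450, was at 91.9, 108 and 121 RPKM in normal and 221, 148 and 182 in HepLPC libraries (adjusted p = 0.285). In the opposite direction, Cyp2e1, the cytochrome P450 that activates CCl4, was at 1511, 1819 and 1255 RPKM in normal, 981, 887 and 1156 in HepLPC and 1238, 1080 and 1098 in PBS libraries (difference -0.59, SE 0.18, adjusted p = 0.338). Axin2, Nkd1 and Rnf43, negative regulators that Wnt signalling itself induces, overlapped between HepLPC and normal, with adjusted p of 0.843, 0.818 and 0.983.

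The 250 bases before the Cyp1a2 start (chr8:66978150-66978399, minus strand, GRCr8, RefSeq) are shown as an example of a pericentral window with a TCF/LEF core, the element through which Wnt signalling acts. Capitals mark CTTTGAT, searched on both strands.
Cyp1a2: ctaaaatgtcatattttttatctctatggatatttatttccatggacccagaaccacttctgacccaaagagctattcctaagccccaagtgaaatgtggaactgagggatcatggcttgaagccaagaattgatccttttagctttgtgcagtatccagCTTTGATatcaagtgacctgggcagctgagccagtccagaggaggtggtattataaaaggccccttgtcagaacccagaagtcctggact
Among 14 members with an entry, 5 hold this core (Axin2, Cyp1a2, Glul, Nkd1 and Slc1a2), where 3.15% of all windows do. These 5 include both genes that lay above normal and genes that overlapped, and Rhbg is not among them. Glul and Slc1a2 have more than 1 window, and a match in any was counted, while the 3.15% is per window.

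No periportal gene was called. All 18 were tested, 0 were called (2 lower unadjusted), and 4 lay wholly below normal and 1 above (6 and 1 after rescaling, 5 and 2 without HepLPC replicate 2). Of all genes 3.51% lay below and 12.3% above, 7.73% and 8.5% after rescaling, and 7.05% and 27.5% without that library. At an unadjusted p under 0.05, 1.98% of all genes were lower. The median was -0.12 (PBS -0.31). Hsd17b13, a lipid droplet enzyme, was at 217, 198 and 250 RPKM in normal, 193, 180 and 165 in HepLPC and 115, 102 and 96.6 in PBS libraries (difference -0.30, adjusted p = 0.542). Uroc1, urocanase of histidine breakdown, was at 91.3, 95.7 and 92.7 RPKM in normal and 73.8, 45.8 and 79.1 in HepLPC libraries (adjusted p = 0.475). The urea cycle genes Ass1, Arg1 and Cps1 gave adjusted p of 0.967, 0.984 and 0.876.

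**Figure D5:**
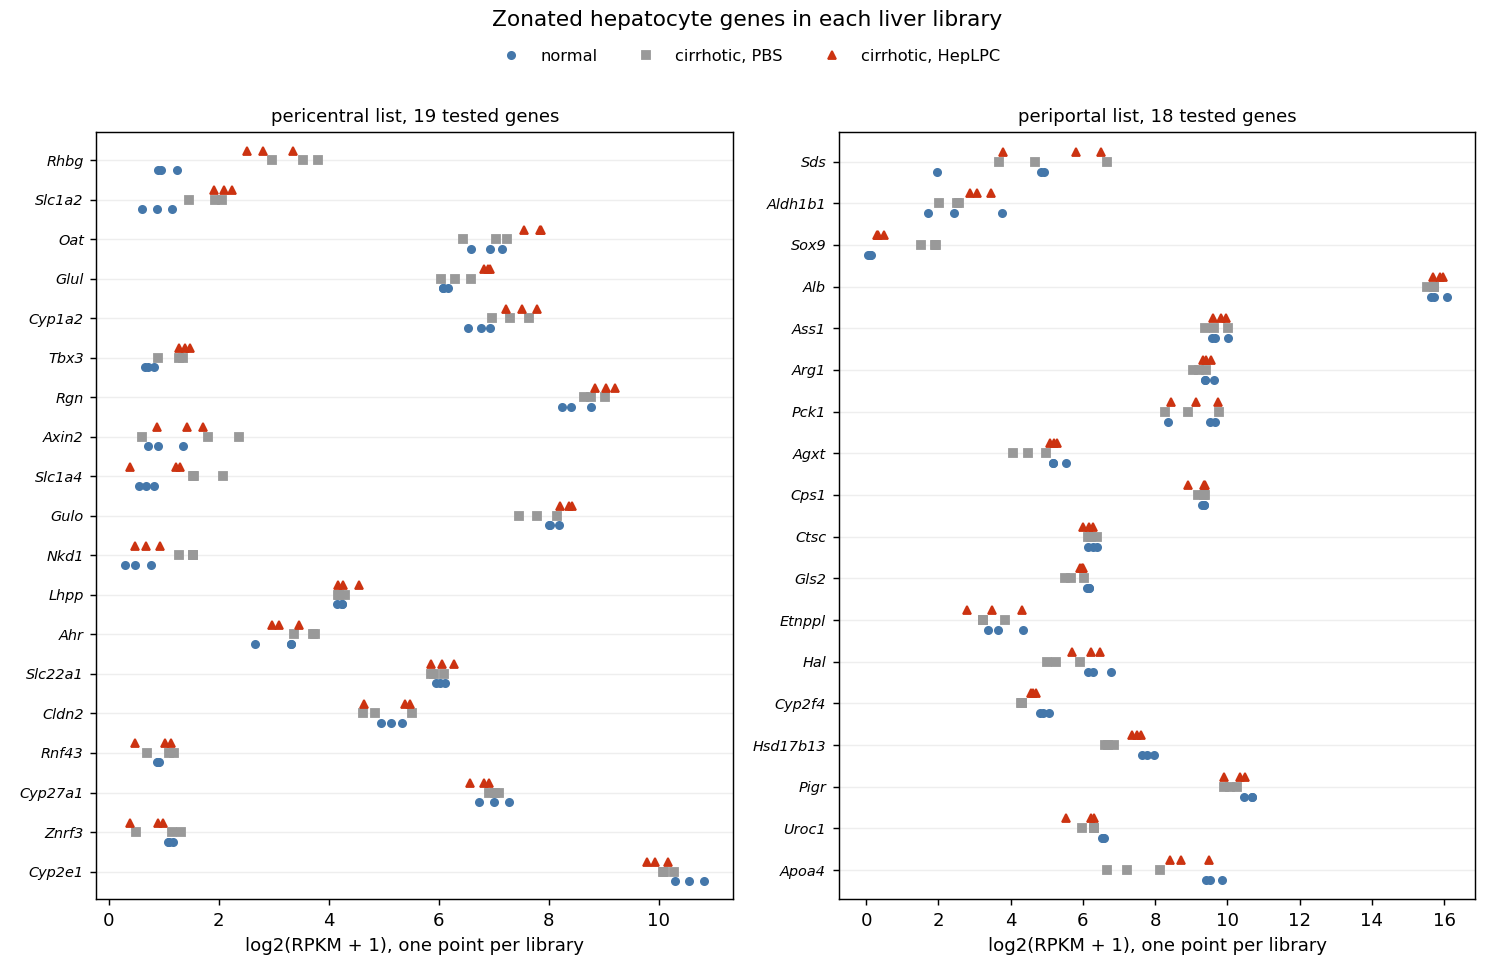
Points give log2(RPKM + 1) of the tested pericentral genes (left) and periportal genes (right) in each library, ordered by the difference of HepLPC from normal. Rhbg, Slc1a2, Oat and Glul lie above normal in all HepLPC libraries, and Hsd17b13 and Uroc1 lie below.

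Most bile acid synthesis genes beyond Cyp7a1 overlapped with the normal values. All 15 members were tested and 0 were called (2 higher unadjusted, beside 7.34% of all genes). In 2 the HepLPC values lay wholly above normal and in 1 wholly below, beside 12.3% and 3.51% of all genes. Without HepLPC replicate 2 these were 3 and 2, beside 27.5% and 7.05%. The other gene above was Nr0b2, the repressor SHP, which bile acids induce and which acts on Cyp7a1. Nr0b2 was at 6.68, 3.18 and 7.34 RPKM in normal and 10.1, 15.3 and 13.9 in HepLPC libraries (difference 1.11, SE 0.48, adjusted p = 0.533). Cyp8b1, which sets the proportion of cholic acid, overlapped at 174, 118 and 76.7 RPKM in normal and 140, 98.6 and 97.5 in HepLPC libraries. Slc10a1, the main bile acid uptake carrier, lay slightly but wholly below normal. It was at 368, 368 and 375 RPKM in normal and 363, 341 and 322 in HepLPC libraries (adjusted p = 0.876).

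Cholesterol synthesis genes lay in part above normal. All 24 were tested and 0 were called (8 higher and 0 lower unadjusted, beside 7.34% and 1.98% of all genes). In 7 the HepLPC values lay wholly above normal (5 after rescaling, 13 without HepLPC replicate 2), beside 12.3%, 8.5% and 27.5% of all genes, and in 0 wholly below, with a median of 0.31 beside 0.47 for PBS. Summed over all 24 members the groups overlapped, at 1146, 1477 and 1920 RPKM in normal and 1626, 1744 and 2407 in HepLPC libraries. Idi1, isopentenyl diphosphate isomerase, was at 15.7, 17.1 and 20.1 RPKM in normal, 28.7, 57.2 and 54.0 in HepLPC and 61.4, 48.3 and 46.9 in PBS libraries (difference 1.30, SE 0.25, adjusted p = 0.131). Sqle, squalene epoxidase, was at 12.3, 11.2 and 16.5 RPKM in normal and 21.4, 33.8 and 46.6 in HepLPC libraries (adjusted p = 0.168), and Mvd, of the mevalonate pathway, at 3.71, 5.21 and 6.43 and at 7.94, 11.6 and 15.3 (adjusted p = 0.253). The sterol-regulated promoters of this pathway are known to need CCAAT-bound NF-Y beside SREBP. The 250 bases before the Idi1 start (chr17:66547525-66547774, minus strand, GRCr8, RefSeq) are shown for that reason, with CCAAT and its reverse complement ATTGG in capitals.
Idi1: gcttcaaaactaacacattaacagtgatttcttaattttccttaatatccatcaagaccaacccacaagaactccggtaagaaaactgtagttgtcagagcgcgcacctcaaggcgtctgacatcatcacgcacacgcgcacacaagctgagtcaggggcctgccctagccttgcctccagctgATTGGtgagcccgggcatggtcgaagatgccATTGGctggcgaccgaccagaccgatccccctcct
Of 16 members with an entry 14 hold CCAAT in this window, where 34% of all windows do. Here too a member was counted with a match in any of its windows, unlike the share of all windows.

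Fatty acid oxidation genes ran slightly below normal. Of 25 members 24 were tested and 0 called (0 higher and 5 lower unadjusted, beside 7.34% and 1.98% of all genes). In 6 the HepLPC values lay wholly below (8 after rescaling) and in 0 above, and in 7 and 1 without HepLPC replicate 2. Of all genes 3.51% lay below and 12.3% above, 7.73% and 8.5% after rescaling, and 7.05% and 27.5% without that library. The median was -0.16. Acsl1, which activates long-chain fatty acids, was at 495, 493 and 490 RPKM in normal, 395, 338 and 472 in HepLPC and 266, 363 and 283 in PBS libraries (difference -0.31, adjusted p = 0.631). Hadh, of mitochondrial beta-oxidation, was at 169, 133 and 160 RPKM in normal and 122, 93.6 and 128 in HepLPC libraries (adjusted p = 0.443). Fgf21, a fasting hormone, was at 4.24, 1.83 and 2.75 RPKM in normal and 1.65, 0.412 and 0.458 in HepLPC libraries (adjusted p = 0.276). Scd, stearoyl-CoA desaturase, was the fatty acid synthesis gene wholly below normal, at 1017, 1648 and 980 RPKM in normal, 960, 414 and 687 in HepLPC and 370, 351 and 490 in PBS libraries (adjusted p = 0.442). That list's median was -0.25, and 0.05 without HepLPC replicate 2.

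Most secreted plasma protein genes overlapped with the normal values. All 27 were tested, 0 were called (0 also unadjusted) and 1, Serpina1, lay wholly above normal, beside 12.3% of all genes. Without HepLPC replicate 2, 3 lay above and 3 below, beside 27.5% and 7.05% of all genes. Alb, albumin, was at 53577, 50794 and 68724 RPKM in normal and 64031, 60981 and 53036 in HepLPC libraries (difference 0.05, 95% interval -0.48 to 0.58). Hnf4a, the transcription factor that maintains hepatocyte identity, was at 75.3, 73.8 and 92.8 RPKM in normal and 103, 71.4 and 87.6 in HepLPC libraries (difference 0.11, 95% interval -0.26 to 0.48). Of 17 hepatocyte transcription factors, all tested, 0 were called (1 higher and 3 lower unadjusted, beside 7.34% and 1.98% of all genes). In 1 the HepLPC values lay wholly above normal and in 3 below, beside 12.3% and 3.51%. After rescaling it was 1 and 5, beside 8.5% and 7.73%. Without HepLPC replicate 2 it was 4 and 3, beside 27.5% and 7.05%. The median was -0.20, and -0.03 without that library. Foxa1 and Foxa2, pioneer factors of liver genes, lay wholly below normal. Foxa2 was at 20.8, 23.1 and 12.9 RPKM in normal, 5.13, 4.81 and 11.1 in HepLPC and 4.14, 14.6 and 9.16 in PBS libraries (difference -1.36, SE 0.42, adjusted p = 0.354), and Foxa1 gave an adjusted p of 0.517.

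Of 24 cytochrome P450 genes tested, 0 were called (3 higher and 3 lower unadjusted, beside 7.34% and 1.98% of all genes). In 3 the HepLPC values lay wholly above normal, near the 12.3% of all genes, and in 5 wholly below, beside 3.51%. Cyp2b2, induced through the receptor CAR, was at 30.3, 27.1 and 10.7 RPKM in normal, 5.04, 5.44 and 9.42 in HepLPC and 18.3, 21.9 and 20.7 in PBS libraries (difference -1.56, SE 0.35, adjusted p = 0.215). Nr1i3, which encodes CAR, was at 8.52, 7.96 and 5.41 RPKM in normal, 3.23, 3.38 and 4.72 in HepLPC and 7.17, 9.29 and 11.1 in PBS libraries. Here the PBS values overlapped normal and the HepLPC values lay below both, with adjusted p of 0.269 against normal and 0.0251 against PBS. Cyp2c11, the male-specific P450, was at 1395, 1047 and 1077 RPKM in normal, 710, 1029 and 725 in HepLPC and 258, 597 and 183 in PBS libraries (difference -0.52, SE 0.38, adjusted p = 0.745). Reads of the near-identical Cyp2b and Cyp2c copies may have been split in ways the sources used here do not state.

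NRF2-driven antioxidant genes had a median difference of 0.10 (0.33 without HepLPC replicate 2) beside 1.21 for PBS. Of 22 tested, 0 were called (5 higher unadjusted, beside 7.34% of all genes). In 5 the HepLPC values lay wholly above normal, or in 8 without HepLPC replicate 2, beside 12.3% and 27.5%. The 5 include genes that stood far above normal in some libraries. Gstp1, a glutathione transferase that marks altered hepatocytes in rat liver, was at 18.3, 17.1 and 14.6 RPKM in normal, 61.6, 62.9 and 90.8 in HepLPC and 714, 205 and 1362 in PBS libraries (difference 2.03, SE 0.55, adjusted p = 0.276). Akr1b8, an aldo-keto reductase, was at 0.354, 1.62 and 1.64 RPKM in normal, 26.2, 11.4 and 31.6 in HepLPC and 124, 29.2 and 186 in PBS libraries (difference 3.40, SE 0.63, adjusted p = 0.116). Aldh3a1, an aldehyde dehydrogenase, was at 0.0877, 0 and 0.0815 RPKM in normal and 5.58, 9.58 and 19.4 in HepLPC libraries (difference 3.41, SE 0.57, adjusted p = 0.0923). All 3 genes were spread several-fold among the PBS libraries, which share their estimate of variance. Fitted on HepLPC and normal libraries alone, Gstp1 (adjusted p = 0.0459) and Akr1b8 (adjusted p = 0.0496) passed. Without PBS replicate 2 they passed as well (0.0396 and 0.0342), and without PBS replicate 1 or 3 they did not. Of 22 alternatives, Gstp1 was called in 2 and Akr1b8 in 3, with adjusted p of up to 0.744 and 0.36. For Aldh3a1 no alternative is given. Gpx2, a gastrointestinal glutathione peroxidase, was at 0.149, 0.136 and 0.461 RPKM in normal, 0.615, 0.972 and 3.47 in HepLPC and 19.9, 20.4 and 17.7 in PBS libraries (adjusted p = 0.384).

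Mast cell genes were few above the filter: 4 of 13 were tested and Mcpt2 alone was called, higher, beside 0.0449% of all genes. In 2 of the 4, Mcpt2 and Cpa3, all HepLPC values lay above normal, beside 12.3% of all genes. Of the 4, 2 reached 1 RPKM in no normal library. Cpa3, the mast cell carboxypeptidase, was at 0.699, 0.671 and 0.487 RPKM in normal, 3.82, 3.49 and 2.16 in HepLPC and 4.34, 3.99 and 10.7 in PBS libraries (difference 1.34, SE 0.30, adjusted p = 0.215). Below the filter, Ms4a2 and Fcer1a, subunits of the high-affinity IgE receptor, showed 0.158, 0.217 and 0.055 and 0.0149, 0.136 and 0.0138 RPKM in normal. Their HepLPC values were 0.916, 0.407 and 0.429 for Ms4a2 and 0.553, 0.399 and 0.324 for Fcer1a, all above normal. Hdc, histidine decarboxylase, and Kit overlapped with normal, and Mcpt4 was at 0 in every library. Cma1, Tpsab1, Tpsb2, Gata2 and Slc18a2, also under the filter, overlapped with normal. Mcpt2 carried most of the list's summed level in HepLPC replicates 1 and 2, but not in replicate 3, where it was at 8.49 RPKM. Without it the other 12 members summed to 6.88, 5.58 and 5.24 RPKM in normal, 10.7, 8.42 and 8.71 in HepLPC and 11, 9.67 and 21.5 in PBS libraries.

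No macrophage gene was called. The counts higher unadjusted in this paragraph stand beside 7.34% of all genes. Kupffer cell markers, all 13 tested, had a median of 0.14 with 0 called (1 higher unadjusted), and Clec4f, the Kupffer-specific lectin, was at 64.0, 81.3 and 72.9 RPKM in normal and 81.9, 107 and 103 in HepLPC libraries (adjusted p = 0.533). Recruited and scar-associated macrophage genes, 9 tested, had a median of 0.26 beside 1.79 for PBS. None was called (2 higher unadjusted), 3 lay wholly above normal, beside 12.3% of all genes, and 6 overlapped: Gpnmb, Cd9, Lyz2, Cd68, Fabp5 and Plin2. Lgals3, galectin-3, was at 5.66, 10.1 and 5.36 RPKM in normal, 12.4, 16.3 and 23.0 in HepLPC and 47.2, 37.0 and 44.8 in PBS libraries (difference 1.19, SE 0.26, adjusted p = 0.195). Trem2, a lipid receptor of scar-associated macrophages, was at 0.0404, 0 and 0 RPKM in normal, 0.0835, 0.208 and 0.371 in HepLPC and 1.45, 2.81 and 1.51 in PBS libraries. These genes, with Cd44 the 3 wholly above normal, stood below all PBS values, and Trem2 reached 1 RPKM only in PBS libraries. Of the MHC class II genes, 5 of 8 were tested, 0 were called (2 higher unadjusted) and 3 lay wholly above normal, beside 12.3% of all genes, with HepLPC replicate 3 the highest. Cd74, the invariant chain, was at 75.3, 74.5 and 73.9 RPKM in normal and 88.3, 86.8 and 167 in HepLPC libraries (adjusted p = 0.536).

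Of 9 B and plasma cell genes 1, Jchain, passed the filter, and it was not called. Jchain, which joins IgA and IgM subunits, was at 2.68, 5.99 and 3.89 RPKM in normal, 20.5, 7.47 and 28.0 in HepLPC and 19.7, 17.6 and 15 in PBS libraries (difference 1.80, SE 0.41, adjusted p = 0.215). LOC103692723, a constant-region gene in the GRCr8 table and picked after its values were seen, was at 0.299, 3.44 and 1.39 RPKM in normal, 122, 21.9 and 33.8 in HepLPC and 40.3, 8.76 and 16.1 in PBS libraries (difference 4.26, SE 0.71, adjusted p = 0.0923). That gene was not called.

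Among 19 interferon-induced genes, all tested and 0 called (4 higher and 1 lower unadjusted, beside 7.34% and 1.98% of all genes), Ifit1 stood out after its values were seen. This RNA-binding antiviral protein gene was at 7.99, 2.07 and 1.65 RPKM in normal, from 329, 93 and 73 reads, and at 0.0751, 0.025 and 0 in HepLPC libraries, from 3, 1 and 0 reads. The PBS libraries held 4.21, 5.68 and 5.19 RPKM. Only the HepLPC group was near 0. The difference from normal was -2.02 (SE 0.38, adjusted p = 0.131) and that from PBS -2.54 (adjusted p = 0.0106). Its relatives Ifit2, at 7.99, 6.66 and 8.66 RPKM in normal and 8.79, 4.82 and 9.23 in HepLPC libraries, and Ifit3 were not low in the HepLPC livers.

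Of 21 growth hormone and leptin axis genes tested, Lepr was the 1 called, lower, beside 0.036% of all genes, and 15 overlapped with normal. At an unadjusted p under 0.05, 1 was higher and 3 lower, beside 7.34% and 1.98% of all genes. Counting Lepr, 2 lay wholly above and 4 wholly below (1 and 3 after rescaling, 3 and 6 without HepLPC replicate 2). Of all genes 12.3% lay above and 3.51% below, 8.5% and 7.73% after rescaling, and 27.5% and 7.05% without that library. The list's median was -0.26 (0.02 without HepLPC replicate 2). Cish, a feedback inhibitor that STAT5 induces, was at 9.29, 18 and 14.3 RPKM in normal, 2.06, 4.92 and 4.70 in HepLPC and 2.45, 23.0 and 5.61 in PBS libraries (adjusted p = 0.461). Igf1, the growth factor that growth hormone induces in liver, overlapped at 311, 279 and 376 RPKM in normal and 340, 408 and 445 in HepLPC libraries (adjusted p = 0.689).

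Genes of p53 signalling and apoptosis included 5 of 23 tested wholly below normal and 2 above, beside 3.51% and 12.3% of all genes. Of the 23, 0 were called (1 higher and 3 lower unadjusted, beside 7.34% and 1.98% of all genes). Cdkn1a, the cell cycle inhibitor p21, was at 30.3, 14.2 and 17.2 RPKM in normal, 9.48, 8.39 and 6.61 in HepLPC and 16.8, 12.6 and 16.0 in PBS libraries (difference -1.18, SE 0.25, adjusted p = 0.195). Gadd45a, a DNA damage response gene, was at 11.7, 18.4 and 16.9 RPKM in normal, 8.83, 8.60 and 8.48 in HepLPC and 14.6, 16.8 and 17.7 in PBS libraries. Its difference from normal was -0.77 (adjusted p = 0.195) and the adjusted p against PBS was 0.0287. In both genes the HepLPC livers were the lowest group without overlap. Of the stress and unfolded protein response genes, 19 were tested and 0 called. At an unadjusted p under 0.05, 4 were higher and 2 lower, beside 7.34% and 1.98% of all genes. In 5 the HepLPC values lay wholly above normal (1 after rescaling) and in 4 below, beside 12.3% (8.5%) and 3.51%. Hspa5, the chaperone BiP, was at 302, 223 and 339 RPKM in normal and 381, 475 and 350 in HepLPC libraries (adjusted p = 0.469), and Jun, an immediate early transcription factor, at 19.1, 22.7 and 15.5 and at 8.36, 6.80 and 13.9 (adjusted p = 0.349).

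Endothelial, neutrophil, T cell and red cell lists held no called gene. At an unadjusted p under 0.05 only 1 red cell gene was lower, beside 1.98% of all genes. Lyve1, a sinusoidal endothelial hyaluronan receptor, was at 33.7, 29.6 and 31.6 RPKM in normal and 31.4, 41.0 and 25.1 in HepLPC libraries (difference 0.01, 95% interval -0.36 to 0.39). Lcn2, lipocalin 2, an acute phase protein of hepatocytes and neutrophils, overlapped with normal at 0.344, 0.367 and 1.28 RPKM there and 0.829, 1.24 and 2.96 in HepLPC libraries, while PBS libraries held 13.1, 37.3 and 14.0 (adjusted p = 0.718 against normal and 0.00795 against PBS). The haemoglobin transcripts Hba1 and Hbb had their largest standard deviation, in RPKM and not on the log scale, in the normal group. Hbb was at 1564, 524 and 727 RPKM in normal, 527, 994 and 552 in HepLPC and 473, 805 and 245 in PBS libraries.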

How the data were processed

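Whole-liver RNA-seq libraries were assigned to groups from their titles. The authors deposited RPKM for 40154 gene rows in each library, per the file headers. The submitters' processing notes name HISAT2, StringTie and the human build hg19, although the rows carry rat symbols, so the authors' build is uncertain. How strand and reads shared by paralogs were treated is not stated there. Spreadsheet-style dates replaced 12 symbols. Whole reads per gene were recovered from the RPKM within 0.01 read, and the library totals inferred with them were 17.4 to 21.8 M reads. Counting precision is limited by this depth and covers counting error only.

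The 11124 genes that reached 1 RPKM in at least 3 of 9 libraries were fitted on log2(RPKM + 1), a pseudocount of 1, with limma 3.58.1 in R 4.3.3, with a mean-variance trend, all 9 libraries, 6 residual degrees of freedom and two-sided tests. A gene counted as called when its p, adjusted by Benjamini-Hochberg, was under 0.05. The scripts were tested on simulated data. Every replicate pair differed by more than sampling noise (chi-square per degree of freedom 32.2 to 129). Members, lists (39, of 661 genes) and alternatives were chosen with earlier results of these data known. Named genes are 6 markers, a panel of 18, the largest called changes with non-overlapping groups, and per list up to 4 called and 2 uncalled members of highest RPKM. All other genes named were chosen after their values were seen. Alternatives were other pseudocounts (0.1, 0.5), filters (none, 5 RPKM), scalings and models, and leaving out each library. Names and promoter sequences came from RefSeq on GRCr8, where 23761 rows matched, and no coordinates of the deposited rows were used.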

Additional observations from a re-analysis of the deposited data

How the results depend on the processing

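Of 9 calls against normal (5 higher, 4 lower), the count was 11 (10 higher, 1 lower) with a pseudocount of 0.1, and 7 (3 higher) after rescaling by the median of ratios. Quantile normalization left 3 calls, 0 of them higher. Array weights gave 51 (40 higher, 11 lower). No call, a count of 0 in both directions, was made without a filter, with a filter at 5 RPKM or by voom on the recovered reads, where 1256, 491 and 811 genes were higher and 440, 124 and 219 lower at an unadjusted p under 0.05. Leaving out 1 library at a time gave 1 to 14 calls, with 0 to 10 higher and 1 to 5 lower, the fewest without normal replicate 3 or HepLPC replicate 3 and the most without PBS replicate 2. Leaving out both HepLPC replicate 2 and PBS replicate 1 gave 16, of which 11 higher. With a replicate block the count was 1 (0 higher, 1 lower). The labels give same-numbered libraries nothing in common but the number, so the block pairs nothing the labels establish. Residual correlations of these libraries ran from -0.412 to 0.31, and the residuals also depended on gene length. Whether the shared number marks a pairing was not tested. Non-overlapping genes numbered 1757, and 3845 leaving out HepLPC replicate 2, an alternative chosen after seeing the data, in which fewer values must separate. None of the 9 called genes changed direction under any alternative that gave it a value. Of the panel, 3 uncalled genes changed sign when a library was left out: Epcam ranged from -0.03 to 0.34, Alb from -0.04 to 0.18 (also -0.01), and Hnf4a from -0.02 to 0.24. The cause of these changes was not tested. Low-level genes such as Lepr rest on few reads in the cirrhotic livers.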
